A study of Mus musculus with 7 samples.

Results

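Hydrogen sulphide is made and removed by a small set of enzymes, and 9 of their genes are described here across libraries of mouse embryonic fibroblasts given R406 or its solvent DMSO. The genes were chosen by name, with earlier results of these data known. Cbs, Cth and Mpst make hydrogen sulphide, and Sqor, Ethe1, Tst and Suox oxidise it or its products. Cdo1 and Csad turn cysteine into taurine precursors. All 9 were found by symbol among the 53715 genes of the deposited table, and all 9 were among the 13929 genes expressed highly enough to be tested. R406 inhibits the kinase Syk, and the title of the study names the Syk, calcineurin and NFAT axis together with hydrogen sulphide production.

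RNA-seq was run on 2 libraries with DMSO and 2 libraries with R406. All 4 came from fibroblasts of OG2 embryos at embryonic day 13.5, which carry a Pou5f1-EGFP reporter, used at passage 3 and grown in Stage 1 medium, an early medium of chemical reprogramming, under a protocol of 12 days. Both groups therefore shared the other listed agents of that medium: VPA, CHIR99021, 616452, Parnate, Forskolin, AM580, EPZ004777, bFGF and vitamin C, with 10% KSR and 10% FBS. The CUT&Tag assay, in which an antibody directs a transposase to cut nearby DNA, used anti-FLAG on OG2 fibroblasts, also of embryonic day 13.5, that carried lentiviral rtTA and TetO-Flag-Nfatc1, grown in Stage 1 medium with Dox, and given DMSO or R406 for 4 days, with 1 library each. Nfatc1 was thus made from a viral, Dox-driven promoter in those cells, and not from its own gene alone. Neither the R406 concentration nor the day of RNA harvest is stated in the labels. A library made without primary antibody was not analysed here.

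Cells reach hydrogen sulphide by several routes. Cystathionine beta-synthase, the product of Cbs, joins homocysteine and serine, and cystathionine gamma-lyase, the product of Cth, splits the resulting cystathionine to cysteine; both enzymes can also release hydrogen sulphide from sulphur amino acids. Mpst moves sulphur from mercaptopyruvate, a product of cysteine transamination, to an acceptor from which sulphide is set free. In mitochondria, sulphide quinone oxidoreductase (Sqor) takes the first step of removal and passes electrons to ubiquinone, after which the dioxygenase Ethe1, the sulphurtransferase Tst (rhodanese) and the sulphite oxidase Suox lead the sulphur to thiosulphate and sulphate. Cdo1 and Csad draw cysteine off towards hypotaurine.

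Of the 9 genes, Cth rose and Sqor fell with R406, so the single called change of the synthesis arm was upwards and that of the oxidation arm downwards. Both calls were lost with no filter on low values. These 2 calls compare with 8.31% of all 13929 genes tested that passed the same threshold, a limma adjusted p of 0.05 over all genes, 4.26% higher and 4.05% lower. Cbs had the largest difference of the set, a 5.27-fold higher mean, but narrowly missed the threshold. Tst of the oxidation arm had a 2.14-fold higher mean and did not pass either. In 6 of the 9 genes the DMSO and R406 libraries did not overlap, 4 higher and 2 lower with R406, against 56.1% of all genes tested, 25.9% higher and 30.2% lower, so such a separation was common in these data. An unadjusted p under 0.05 was found for 5 of the 9, against 26.8% of all genes tested. The median log2 difference of the 9 genes was −0.09, and that of all genes tested was −0.02. As the genes were chosen with earlier results known, the shares over all genes are given as background, with no test.

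Expression is given in TPM, the share of a transcript per length in a fixed total, so that levels can be compared between genes while the number of reads behind a value is unknown. Whether replicates are separate cultures is not stated in the labels, and the p-values therefore speak for the spread of these libraries alone, which may be technical. The libraries held 13537 to 14045 genes at 1 TPM or more. With DMSO 16.0% and 17.7% of all TPM fell on ribosomal protein genes, and with R406 21.8% and 25.2% did; the shares of mitochondrial genes were 10.5% and 14.2% against 6.72% and 10.3%. Replicate 1 was higher than replicate 2 for 8 of the 9 genes in each group, with Cth the exception in DMSO and Cdo1 in R406. No such count over all genes was made, so this order is not read as a trait of the 9 genes. The fibroblast markers, 8 genes of which 2 rose and 1 fell, were high throughout and summed to 3171 to 4091 TPM with DMSO and 3628 to 5345 TPM with R406. Beside them, 8 of 8 tested macrophage markers (12 measured) fell, with sums of 231 to 270 TPM with DMSO and 7.51 to 8.21 TPM with R406, and Adgre1, Tyrobp, Ptprc and Itgam were listed at 0 in at least 1 R406 library. Of 8 extraembryonic endoderm markers 5 rose (sums of 236 to 248 TPM and 322 to 453 TPM), and 6 of 6 epithelial markers rose (77.8 to 99.9 TPM and 409 to 715 TPM). Hepatocyte markers, of interest because liver is rich in several of these enzymes, summed to 10.1 to 10.5 TPM and 9.65 to 11.1 TPM, with 1 of 3 tested higher and 1 lower, and Cyp3a11 was at 0 in all 4 libraries. Of 6 adipocyte markers, 3 were tested and 1 rose (sums of 10.2 to 12.8 TPM and 16.6 to 19.8 TPM), with Cidec at 0 in all libraries. The part of these shifts in the values below was not tested, and in such bulk samples fewer cells of a type and less RNA per cell cannot be told apart.

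In DMSO the 9 genes spanned a wide range of levels. Cdo1 stood highest at 75.0 ± 3.52 TPM (mean ± SD of n = 2 libraries, as for every such value below), followed by Ethe1, Mpst, Csad, Suox, Sqor, Tst, Cbs and Cth. The libraries of Ethe1 and Mpst, of Sqor and Tst, and of Cbs and Cth overlapped in this order, so these neighbours did not differ beyond their spread. With R406 the order was Cdo1, Mpst, Ethe1, Csad, Tst, Suox, Cbs, Cth and Sqor. Over all 4 libraries the mean of Cdo1 was above 85.1% of tested genes and that of Cth above 25.8%. Neighbours overlapped with R406 from Cdo1 to Mpst and from Ethe1 through Cbs. Sqor thus went from the sixth place to the last, below both cystathionine genes.

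**Figure D1:**
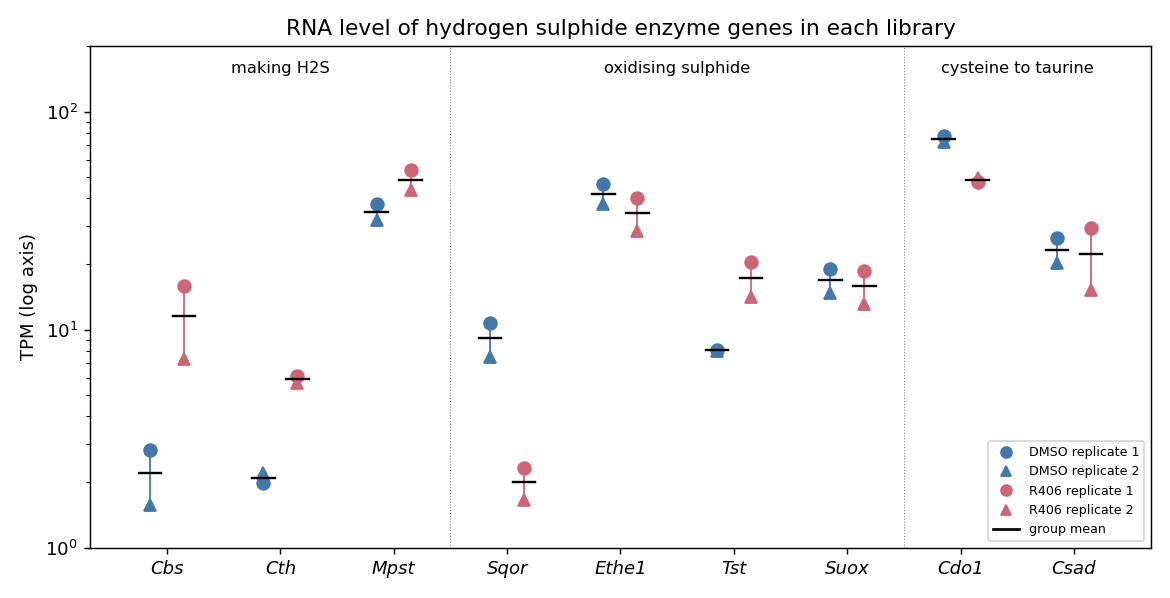
TPM of the 9 genes in each library on a log axis, with DMSO in blue and R406 in red, circles for replicate 1, triangles for replicate 2 and black bars for group means. Cbs and Cth sit near 2 TPM in DMSO and higher in both R406 libraries, while Sqor falls to about 2 TPM.

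Cbs and Sqor had the largest difference in each direction, and the first start of Mpst lies under a deposited Nfatc1 peak in both conditions. Promoter sequences are shown for these 3 genes, for Mpst at that start. Each is the 250 bases before a RefSeq start site on mm10 (GRCm38.p6), 5′ to 3′ on the strand of the gene, and capitals mark GGAAA, the core recognised by NFAT proteins, or its complement TTTCC. Windows in the RefSeq table matched 6 of the 9 genes, with 10 start sites in all.
Mpst, chr15:78406462-78406711, plus strand: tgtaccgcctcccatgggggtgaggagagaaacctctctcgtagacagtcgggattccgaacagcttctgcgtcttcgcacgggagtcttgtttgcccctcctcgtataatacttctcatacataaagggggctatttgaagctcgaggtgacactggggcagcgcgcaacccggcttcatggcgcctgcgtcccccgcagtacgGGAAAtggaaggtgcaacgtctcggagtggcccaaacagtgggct
Cbs, chr17:31637206-31637455, minus strand: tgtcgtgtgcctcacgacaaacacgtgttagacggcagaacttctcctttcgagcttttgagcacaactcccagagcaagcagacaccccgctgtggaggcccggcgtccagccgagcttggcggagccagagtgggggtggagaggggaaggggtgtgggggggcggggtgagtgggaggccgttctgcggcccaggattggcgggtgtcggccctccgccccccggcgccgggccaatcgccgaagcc
Sqor, chr2:122771463-122771712, plus strand: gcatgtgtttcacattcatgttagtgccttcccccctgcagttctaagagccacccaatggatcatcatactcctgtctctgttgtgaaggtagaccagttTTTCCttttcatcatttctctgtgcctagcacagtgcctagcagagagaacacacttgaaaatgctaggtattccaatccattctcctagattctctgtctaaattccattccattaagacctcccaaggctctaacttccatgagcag
In the Mpst window 1 match begins 45 bases before the start site. Cbs has no match, and Sqor has 1, beginning 149 bases before a start site that lies inside its gene span. GGAAA on either strand was found in 7 of the 10 windows of these genes, some of which overlap, and in 55.6% of all 32851 windows of the same length, so its presence sets none of them apart. TGATGNAA, a composite element of ATF4 and C/EBP, was found in 1 of the 10 windows, that of Sqor, against 3.45% of all windows. TGACNNNGC, the core of elements bound by NRF2, was found in 1 of the 10, a second start of Mpst, against 10.2%. Both were searched on either strand. A match is a description of the letters and not a binding site.

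Among the genes that make hydrogen sulphide, the cystathionine genes were low with DMSO and higher in both R406 libraries. Cth, which releases cysteine from cystathionine, measured 1.97 and 2.19 TPM with DMSO and 6.13 and 5.72 TPM with R406. The 2 groups were well apart and each was tight. Its mean rose 2.85-fold, from 2.08 ± 0.157 to 5.92 ± 0.294 TPM, a log2 difference of 1.17 ± 0.18 (SE, limma on log2(TPM + 1), which understates the change of low genes; adjusted p = 0.0313). The call was lost without DMSO replicate 1 (adjusted p = 0.150), DMSO replicate 2 (0.0893) or R406 replicate 1 (0.0579), with log2 differences of 1.12 to 1.22, and with no filter on low values (0.0968). Gspt2, Hmgb3 and Rnaset2a had the profiles most like that of Cth over the 4 libraries among 8799 genes of at least 5 TPM, at Euclidean distances of 0.053, 0.063 and 0.087 between centred log2 values.

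Cbs, which commits homocysteine to the transsulfuration route, measured 2.82 and 1.57 TPM with DMSO and 15.9 and 7.30 TPM with R406. Both R406 libraries were above both DMSO libraries, yet they differed from each other by more than 8 TPM. The means were 2.20 ± 0.881 and 11.6 ± 6.05 TPM, with a log2 difference of 1.92 ± 0.41 (SE) and a 95% interval of 0.85 to 2.98. A larger difference in either direction was found for 2.68% of tested genes, given as background since Cbs was chosen with earlier results known. Limma's adjusted p was 0.0591, so Cbs did not pass with all 4 libraries as deposited. It passed under 3 other scalings: quantile normalization (0.0278), median centring (0.0234) and rescaling without mitochondrial, ribosomal protein and predicted genes (0.0148). It did not pass with a pseudocount of 0.1 TPM (0.0574) or 5 TPM (0.0769). Nor did it pass with no filter on low values (0.136) or a mean of at least 5 TPM (0.0767). With 1 library left out, its log2 difference ran from 1.40 to 2.43.

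Mpst was the most abundant synthesis gene in every library, at 37.6 and 31.9 TPM with DMSO and 53.7 and 43.5 TPM with R406. The groups did not overlap, with means of 34.7 ± 4.05 and 48.6 ± 7.16 TPM. Its log2 difference was 0.47 ± 0.21 (SE), with a 95% interval of −0.07 to 1.01 and an adjusted p of 0.236 by limma. The span of Mpst overlaps that of Gm52185 in RefSeq, and the library kit does not mark strand, so reads of overlapping genes may not be told apart. Mpst alone made up 88.7% and 89.4% of the summed TPM of the 3 synthesis genes with DMSO, and 70.9% and 77.0% with R406. Cbs and Cth together went from 4.79 and 3.77 TPM to 22.0 and 13.0 TPM.

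The oxidation arm did not move as a unit. Sqor, the first enzyme of mitochondrial sulphide removal, measured 10.8 and 7.49 TPM with DMSO and 2.32 and 1.66 TPM with R406. Both R406 libraries lay well below both DMSO libraries. Its mean fell from 9.12 ± 2.31 to 1.99 ± 0.463 TPM, 4.58-fold lower, with a log2 difference of −1.75 ± 0.25 (SE, limma adjusted p = 0.0275). The call was lost without DMSO replicate 1 (log2 −1.51, adjusted p = 0.0792) and with no filter on low values (0.0858), and was kept in each of the other 3 leave-outs. A larger difference in either direction was found for 3.52% of tested genes, given as background since Sqor was chosen with earlier results known. Suv39h1, Sh3kbp1 and Axl had the profiles most like that of Sqor, at distances of 0.057, 0.118 and 0.129. In these libraries the summed macrophage markers were 231 to 270 TPM with DMSO and 7.51 to 8.21 TPM with R406, and their part in the fall of Sqor was not tested.

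Tst, which hands persulphide sulphur to sulphite and forms thiosulphate, went the other way, with 8.10 and 8.02 TPM with DMSO and 20.4 and 14.1 TPM with R406. The DMSO libraries were nearly equal and both R406 libraries were higher. The mean was 2.14-fold higher with R406, a log2 difference of 0.99 ± 0.24 (SE, 95% interval 0.38 to 1.61), at a limma adjusted p of 0.0732. It passed under the 3 other scalings (0.0276, 0.0296 and 0.0229 in the order given for Cbs). It did not pass with a pseudocount of 0.1 TPM (0.0721) or 5 TPM (0.0831). Nor did it pass with no filter on low values (0.137) or a mean of at least 5 TPM (0.0852). With 1 library left out, its log2 difference ran from 0.74 to 1.24.

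Ethe1, the persulphide dioxygenase, was the most abundant gene of the oxidation arm, at 46.6 and 37.6 TPM with DMSO and 40.2 and 28.3 TPM with R406. The groups overlapped, and the log2 difference was −0.30 with a 95% interval of −0.95 to 0.35 (limma adjusted p = 0.509). Suox, which turns sulphite into sulphate, measured 18.9 and 14.8 TPM against 18.5 and 13.1 TPM, also with overlap. Its log2 difference of −0.09 (95% interval −0.75 to 0.56, adjusted p = 0.852) turned to 0.07 without DMSO replicate 1 and to 0.14 without R406 replicate 2, so no direction can be read for it. The span of Ethe1 overlaps that of Zfp575, with the same limit as for Mpst.

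**Figure D2:**
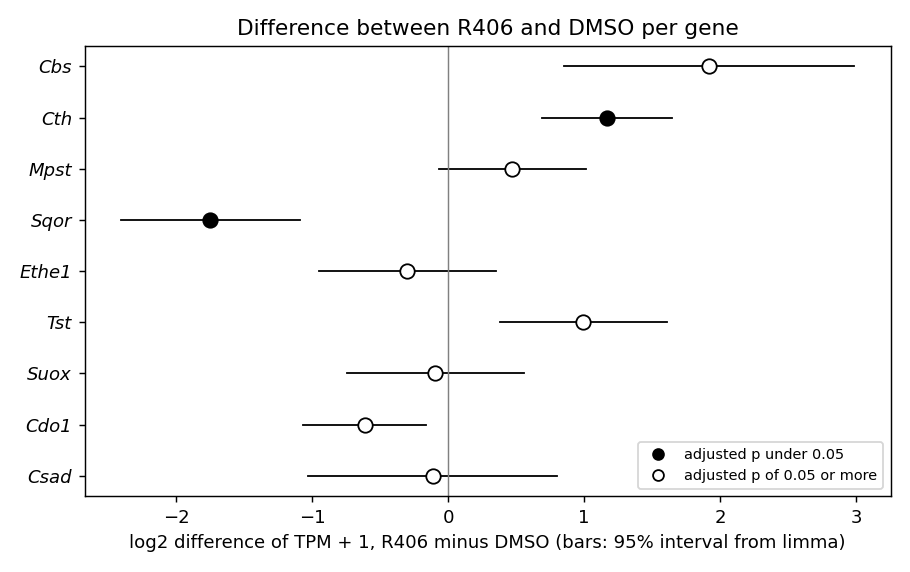
Log2 difference of TPM + 1 between R406 and DMSO for each gene, with 95% intervals from limma and filled points for an adjusted p under 0.05. Only Cth (1.17) and Sqor (−1.75) are filled, and the intervals of Cbs, Tst and Cdo1 also leave out 0 before adjustment over all genes.

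The branch that turns cysteine into taurine precursors stood lower with R406 at its entry. Cdo1, the cysteine dioxygenase, measured 77.5 and 72.5 TPM with DMSO and 47.6 and 49.7 TPM with R406. All 4 values were tight within their group and the groups were apart. The means were 75.0 ± 3.52 and 48.6 ± 1.54 TPM, with a log2 difference of −0.61 (SE 0.175), an unadjusted p of 0.0175 and a limma adjusted p of 0.104, so Cdo1 did not pass. Csad, which removes the carboxyl group of cysteine sulphinate, was at 26.3 and 20.1 TPM with DMSO and at both sides of these with R406, 29.3 and 15.3 TPM. Its log2 difference of −0.11 (95% interval −1.03 to 0.80, adjusted p = 0.875) became 0.07 without DMSO replicate 1 and 0.33 without R406 replicate 2. The span of Csad overlaps that of Zfp740, again with that limit. By limma 0 of these 2 genes passed, against 8.31% of all genes tested, and 1 had an unadjusted p under 0.05, against 26.8%.

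Set against each other, the synthesis genes gained on the oxidation genes in both R406 libraries. The summed TPM of Cbs, Cth and Mpst divided by that of Sqor, Ethe1, Tst and Suox was 0.502 and 0.525 with DMSO and 0.928 and 0.989 with R406. The 2 groups did not overlap, at 0.514 ± 0.0162 and 0.959 ± 0.0426, a separation that 56.1% of single tested genes also showed. As the genes were chosen with earlier results known, this ratio is given with no test. The synthesis sum went from 39.0 ± 4.77 to 66.1 ± 13.5 TPM, of which Mpst contributed 13.9 TPM, Cbs 9.38 TPM and Cth 3.84 TPM. The oxidation sum was 76.1 ± 11.7 and 69.4 ± 17.2 TPM, with overlapping libraries. Within it the mean difference, R406 minus DMSO, was −7.83 TPM for Ethe1, −7.13 TPM for Sqor, −1.03 TPM for Suox and 9.23 TPM for Tst. The size of the ratio depended on its definition: without Mpst it was 0.0561 and 0.249, without Tst 0.576 and 1.28, and with Cdo1 and Csad counted as oxidation genes 0.224 and 0.470, in DMSO and R406. It was higher with R406 in each of these, which reuse the same genes and libraries.

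Inside the oxidation arm the shares shifted from Sqor to Tst. Sqor made up 12.7% and 11.0% of the arm's summed TPM with DMSO and 2.84% and 2.91% with R406. Tst made up 9.60% and 11.8% with DMSO and 25.1% and 24.7% with R406, and the R406 libraries nearly coincided for both genes. Ethe1 took 55.2% and 55.4% with DMSO and 49.3% and 49.5% with R406, and Suox stayed between 21.8% and 22.9% in all 4 libraries. The ratio of Tst to Sqor was 0.754 and 1.07 with DMSO and 8.82 and 8.50 with R406. Of the cysteine-consuming and cysteine-making genes, Cdo1 was 16.2 and 19.2 times the summed level of Cbs and Cth with DMSO, and 2.16 and 3.82 times with R406. These ratios were chosen after the values were seen and carry no test. Over all 9 genes the summed TPM was 213 ± 24.4 with DMSO and 206 ± 39.1 with R406.

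**Figure D3:**
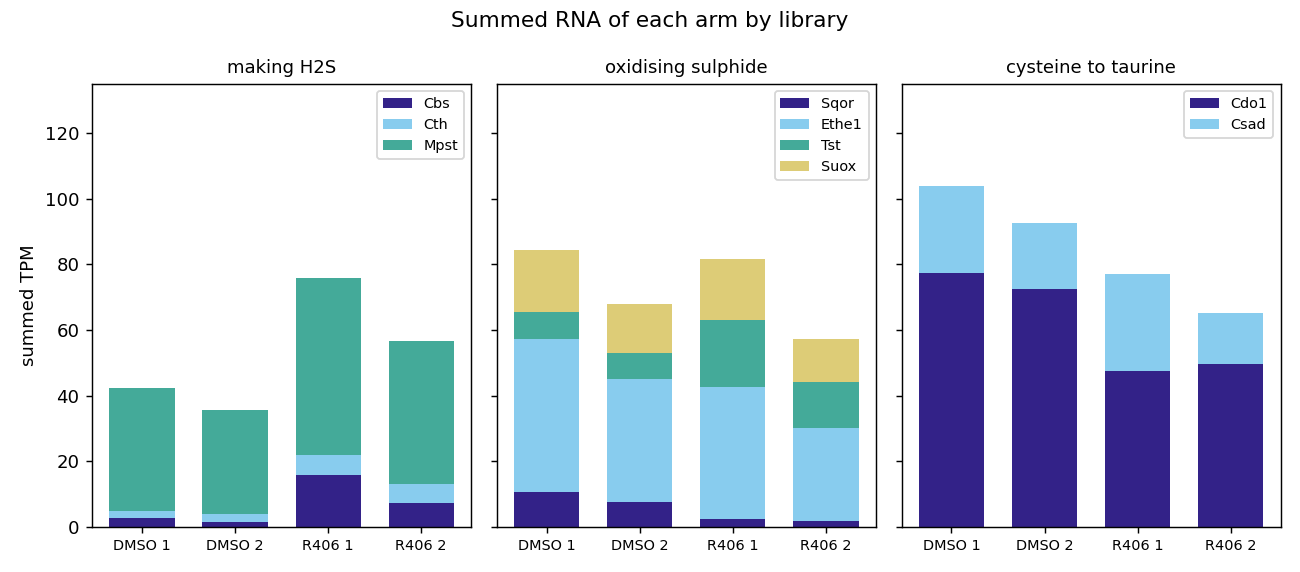
Summed TPM per library for the genes that make hydrogen sulphide, the genes that oxidise it and the genes of the taurine branch, stacked by gene, with each bar 1 library. The synthesis bars are higher in both R406 libraries, the oxidation bars overlap between groups while Sqor shrinks and Tst grows, and the taurine bars are lower.

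Other genes of sulphur metabolism gave no common direction. A list of uptake, methionine, glutathione, thioredoxin, cofactor and sulphate genes held 53 measured genes, of which 46 were tested. By limma 1 rose and 0 fell, against 4.26% higher and 4.05% lower among all genes tested. At an unadjusted p under 0.05, 2 were higher and 5 lower, against 26.8% of all genes in either direction, and the median log2 difference was −0.01 against −0.02 for all genes tested. The riser was Slc1a5, a neutral amino acid transporter, at 8.31 and 6.68 TPM with DMSO and 35.7 and 20.9 TPM with R406 (log2 1.75, adjusted p = 0.0382). The R406 libraries were both well above the DMSO libraries. It lost the call without DMSO replicate 1 (log2 1.89, adjusted p = 0.0791), without DMSO replicate 2 (1.61, 0.0862) and with no filter on low values (0.0999). Slc7a11, the cystine importer, measured 5.86 and 5.33 TPM with DMSO and 2.76 and 2.56 TPM with R406, without overlap (log2 −0.85, limma adjusted p = 0.0600). Txnrd1, the cytosolic thioredoxin reductase, measured 224 and 165 TPM with DMSO and 104 and 75.3 TPM with R406, also without overlap (log2 −1.11, adjusted p = 0.0725), and mitochondrial Txnrd2 had a log2 difference of 0.37 (0.402). Among glutathione genes Gclc, the catalytic subunit of the rate-limiting ligase, had −0.73 (0.0764) and Gss −0.38 (0.512). Under other scalings limma's adjusted p passed for Slc7a11 and Txnrd1 with quantile normalization (0.0376 and 0.0250) and rescaled TPM (0.0392 and 0.0173). For Txnrd1 it also passed with median centring (0.0297). For Gclc it passed with TPM rescaled without mitochondrial, ribosomal protein and predicted genes (0.0499). Slc7a11, Txnrd1 and Gclc each had a lower level in R406 and did not pass with no filter on low values (0.138, 0.138 and 0.113). With 1 library left out, their log2 differences ran from −0.91 to −0.79, −1.34 to −0.88 and −0.82 to −0.65. Slc7a11 did not pass with median centring (0.0555), nor Gclc with quantile normalization (0.0768) or median centring (0.0656).

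Outside the uptake genes, no tested gene of the wider list passed limma's threshold in the libraries as deposited. The aminotransferase genes Got1 and Got2, which supply mercaptopyruvate for Mpst, had log2 differences of −0.16 and −0.28 (adjusted p of 0.797 and 0.459). Of the genes listed under methionine to homocysteine, Mat2b had 0.22 (0.498) and Ahcyl2 −0.25 (0.523). Whether Ahcyl2 acts in that route was not tested. The 3 molybdenum cofactor genes that serve Suox were below 0, as were 7138 of the 13929 genes tested. Mocs1 had −0.69 (0.262) and Gphn −0.36 (0.351). Among genes that handle vitamin B6, the cofactor of Cbs, Cth and Csad, the kinase gene Pdxk had 0.23 (0.502). The phosphatase gene Pdxp had −1.58 (0.0639). Limma's adjusted p of Pdxp passed with quantile normalization (0.0245), median centring (0.0277) and rescaled TPM (0.0159). It did not pass with no filter on low values (0.135) or a mean of at least 5 TPM (0.0795). With 1 library left out, the log2 difference of Pdxp ran from −1.97 to −1.19. Taurine-related Gadl1 had −0.48 (0.180) and Fmo1 0.27 (0.403). Of the genes that use cysteine sulphur, Lyrm4 had 0.48 (0.321). Selenbp1, a methanethiol oxidase, had 0.60 (0.213), Tstd2 −0.17 (0.661) and Mettl7a1 −0.20 (0.838). Papss2 and Papss1, which activate sulphate, had −0.39 and 0.26 (0.275 and 0.500).

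**Figure D4:**
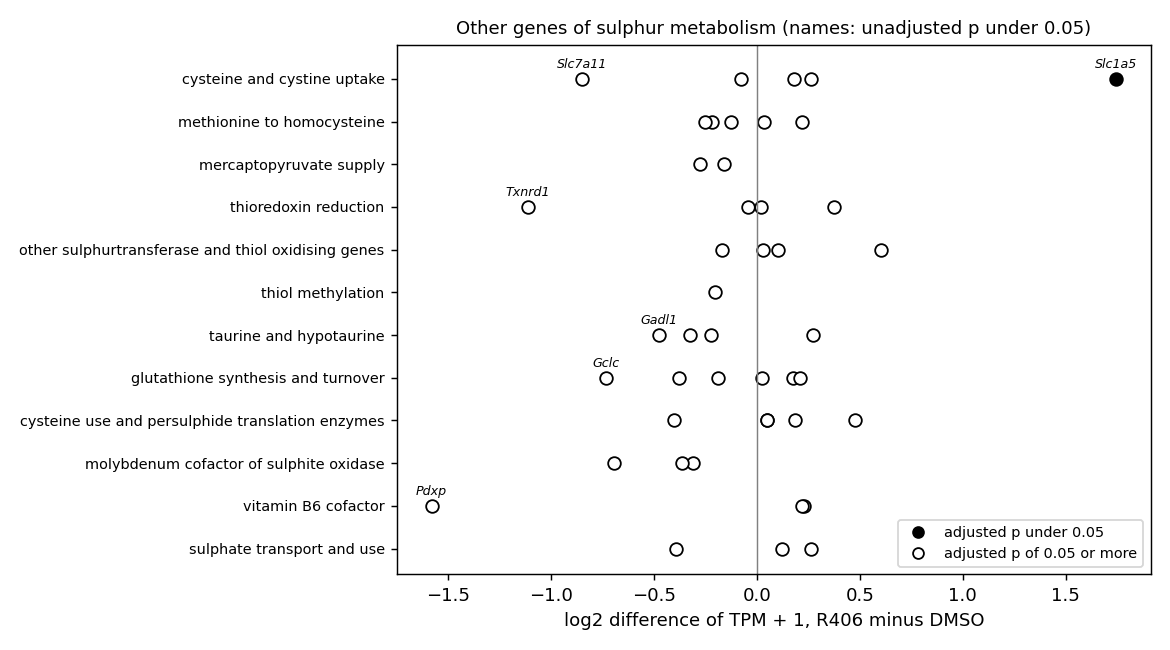
Log2 difference between R406 and DMSO for tested genes of the wider sulphur list by function, with 1 gene left out and each point 1 gene, filled where the adjusted p was under 0.05. Slc1a5 (1.75) is the single filled point, and the other points lie on both sides of 0.

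Nfatc1 peaks lay near some of the genes, in about the share seen for genes at large. Within the gene span and 3000 bp on both sides, 5 of the 9 genes had a deposited peak with DMSO and 6 with R406, against 50.9% and 69.0% of 13301 tested genes with a known span. The 5 genes with a peak in both libraries were Mpst, Ethe1, Tst, Cdo1 and Csad, against 47.8% of genes. Cth had peaks in the R406 list alone, and Cbs, Sqor and Suox had none in either list. The R406 list was longer, with 36885 peaks against 21246, there was 1 library per condition, and a peak present in 1 list alone was not tested. Fold enrichments are the authors' values, used to place a peak within its own list.

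The peak at Mpst covered the promoter printed above. With DMSO it spanned chr15:78405723-78407010, with a fold of 12.4, above or equal to 75.7% of its list, and a summit 62 bases before the span of Mpst. With R406 it spanned chr15:78406340-78406735, with a fold of 23.4, above or equal to 90.8% of its list, and a summit 231 bases before the span. All 396 bases of the R406 peak lay inside the DMSO peak, and the summits were 169 bases apart. The span of Tst ends 846 bases before that of Mpst, so the same peak was counted for both genes, and the DMSO peak reached into the span of Tst while the R406 peak stayed 475 bases from it. The RNA of the neighbours was 2.14-fold higher for Tst and 1.40-fold higher for Mpst with R406, neither past limma's threshold. That RNA came from cells under a protocol of 12 days whose labels name no viral Nfatc1. The CUT&Tag cells carried Dox-driven Nfatc1 and were treated for 4 days, and no link of peak and RNA was tested. The ratio of Tst to Mpst was 0.216 and 0.252 with DMSO and 0.381 and 0.324 with R406.

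Cth had 2 peaks with R406 at the high-coordinate end of its span, where RefSeq also places the start of 1810013D15Rik. The first, chr3:157924819-157925188, had a fold of 6.96 and its summit 148 bases inside the span. The second, chr3:157925718-157926434, had a fold of 10.8 and lay 637 bases outside the span. Both were ordinary within their list, above or equal to 34.4% and 64.7% of R406 peaks. No DMSO peak lay within 10000 bp of Cth.

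The peaks at Cdo1 and Csad were inside the genes and nearly coincided between conditions. At Cdo1 the folds were 18.2 with DMSO and 18.3 with R406, with summits 71 bases apart in the middle of the span, chr18:46713193-46728502. At Csad the folds were 15.3 and 12.7, with summits 173 bases apart and 1634 and 1807 bases inside the high-coordinate end of the span. RefSeq places a start site of Csad at that end and another inside the span. The stretch under these peaks also belongs to the span of Zfp740. Ethe1 had weak peaks that did not overlap between conditions, with a fold of 5.10 with DMSO and 5.69 with R406, above or equal to 11.0% and 19.8% of their lists. A further DMSO peak near Ethe1, with a fold of 6.56, lay 2397 bases beyond its span, over the start of Phldb3.

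**Figure D5:**
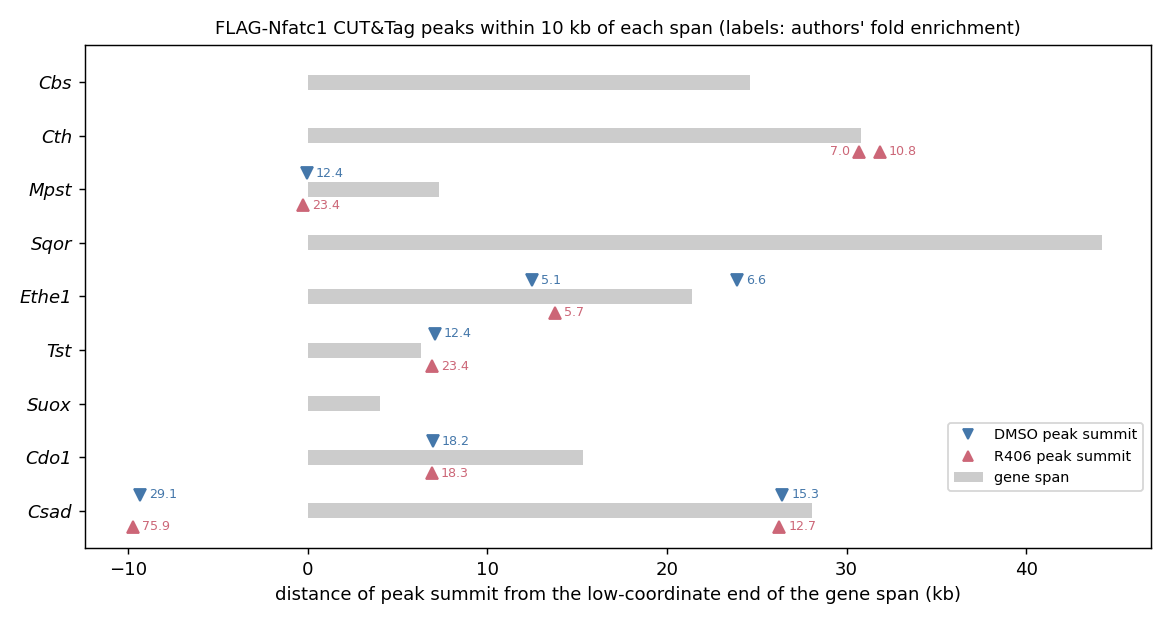
Summits of deposited FLAG-Nfatc1 peaks within 10000 bp of each gene, as distance in kb from the low-coordinate end of the gene span (grey bar), with DMSO above and R406 below the bar and the authors' fold enrichment as label. Cbs, Sqor and Suox have no peak, Mpst and Tst share 1 peak, and Cth has peaks with R406 alone.

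Genes with and without a peak were found both among those whose RNA groups were apart and among those whose groups overlapped. Of the 6 genes without overlap, Mpst, Tst and Cdo1 had peaks in both lists, and Cth with R406 alone. The 2 genes with the largest differences, Cbs and Sqor, had no peak in either list within 10000 bp. Of the 3 genes with overlapping RNA values, Ethe1 and Csad had peaks in both lists and Suox had none. With 9 genes and 1 CUT&Tag library per condition no relation between these readouts was tested.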

How the data were processed

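RNA-seq was measured in 4 libraries and CUT&Tag peaks in 2, grouped by sample title. The authors deposited TPM per gene in 1 table, to whose columns the 4 single files were equal; HISAT2 2.1.0, StringTie 2.0 and the build mm10 are named in the submitters' processing notes. The annotation is not given in the sources read, TPM keeps no depth, and reads shared by near-identical or overlapping genes may be split. The authors deposited 1 peak list per library with a score, a fold enrichment, a −log10 p-value and a −log10 q-value per peak; per the submitters' processing notes Bowtie2 2.2.5 and MACS2 2.1.2 were among the tools, with no control or limit named in the sources read. The lowest deposited −log10 p-values were 5.03 and 5.00.

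Symbols were matched to 53620 of 53715 genes. The test was limma-trend (limma 3.58.1, R 4.3.3) of log2(TPM + 1) for genes whose mean over the 4 libraries reached 1 TPM, two-sided, and p-values were adjusted by Benjamini and Hochberg's method across all of them; the script was tested on simulated data. Exact tests of 2 against 2 libraries cannot go below p = 0.333 and were not used. Gene spans and promoter windows came from RefSeq (GRCm38.p6, the same build as mm10). A peak was counted with 1 base in the span and 3000 bp. The genes, the wider list and the marker lists were chosen with earlier results of these data known. All 9 enzymes were named; of the wider list, called genes and the 2 with the smallest p per subgroup, 1 of which is not reported here; and the 3 most similar profiles for the member with the smallest p in each direction. Tests were repeated with other pseudocounts, filters and scalings, a replicate block, and each library left out.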

Additional observations from a re-analysis of the deposited data

How the results depend on the processing

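Under 12 other settings the log2 differences of Cbs, Cth, Mpst and Tst stayed above 0 and those of Sqor, Ethe1 and Cdo1 below 0 wherever they were tested; Cth was below the filter at a mean of at least 5 TPM. Without DMSO replicate 1 and without R406 replicate 2, Suox (0.0733 and 0.139) and Csad (0.0708 and 0.335) turned above 0, the other leave-outs reaching −0.329 and −0.565. Got1 ran from −0.465 to 0.141 and Mettl7a1 from −0.915 to 0.513 over the leave-outs. Of the 9 enzymes, 1 rose and 1 fell as reported. With no filter on low values 0 and 0 did (5 at an unadjusted limma p under 0.05), with a mean of at least 5 TPM 0 rose (4 unadjusted), and 3 rose with quantile normalization, median centring or rescaled TPM. Leaving out 1 library gave 0 to 3 higher and 0 to 1 lower. Of the wider list, 1 rose and 0 fell; the counts were 0 higher with no filter, 2 and 3 with quantile normalization, 2 and 2 with median centring, 2 and 4 with rescaled TPM, and 0 to 1 higher and 0 to 2 lower on leaving out 1 library. Over all genes, 593 were higher and 564 lower; the counts were 0 and 0 with no filter (5394 of 27879 at an unadjusted limma p under 0.05), 311 and 332 with a mean of at least 5 TPM, 850 lower after quantile normalization, 933 higher after median centring, 1162 and 996 with rescaled TPM, and 159 to 914 higher and 158 to 574 lower on leaving out 1 library. No scaling moved the median of all genes by more than 0.044. The cause of these changes was not tested. The ratio of synthesis to oxidation genes, 0.514 with DMSO and 0.959 with R406, was 0.433 and 1.20 from mean log2 values, 0.576 and 1.28 without Tst, 0.224 and 0.470 with Cdo1 and Csad added, and 0.0561 and 0.249 without Mpst; single libraries gave 0.502 to 0.525 and 0.928 to 0.989. The counts of genes with a peak stayed within 1.5 times under each alternative.

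Same-numbered libraries shared only a number in the labels. Their deviations from the group means correlated across genes (r = 0.556, genes not being independent replicates), with too few pairs to settle a pairing. With a replicate block, 4 of the 9 enzymes rose and 2 fell (Cbs, Cth, Mpst and Tst; Sqor and Cdo1), 2 genes of the wider list rose and 6 fell, and 2128 genes were higher and 2535 lower overall. TPM keeps no depth, so what depth limits is unknown.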

Other observations

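A strong peak lay outside the window used for Csad. It spanned chr15:102166741-102168262 with DMSO, with a fold of 29.1, above or equal to 96.6% of its list, and chr15:102166538-102168317 with R406, with a fold of 75.9, above or equal to 99.6% of its list. It was 8735 and 8680 bases from the span of Csad and overlapped no RefSeq gene span. These are the authors' values for 1 library each, and the difference was not tested.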
